A study of Homo sapiens with 6 samples.

Results

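ATP8B1 and 8 further genes of phospholipid movement across membranes were followed in ZNFX1 KO and wild-type (WT) TYK-nu cells. They are the P4-ATPases (flippases) ATP8B1, ATP8B2, ATP9A, ATP9B, ATP10D, ATP11A and ATP11B, the flippase subunit TMEM30A and the scramblase XKR8. The genes were found by symbol, and all 9 had a gene row among the 62260 gene rows of each file. ATP8B1 was chosen by its measured level in these libraries, which was higher in the KO, so its difference between the groups is given as a description without a test. The other 8 were taken by family.

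TYK-nu is a human line labelled as ovarian cancer. The ZNFX1 KO group holds 3 libraries of TYK-nu cells with a knockout of ZNFX1, a gene for a helicase-like zinc finger protein of RNA sensing, and the WT group holds 3 libraries labelled Wildtype. Both were grown in RPMI-1640 with serum and antibiotics and given no drug, and all 6 libraries carry the same batch number. The labels name neither a clone nor the way the knockout was made, so what the loss of ZNFX1 does and what clonal or editing history does cannot be told apart. The labels call the libraries biological replicates without naming separate cultures, so each p-value speaks of the spread among these 6 libraries, which may be technical.

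The lipid bilayer of a cell is uneven. Flippases use ATP to move phospholipids from the outer or luminal leaflet to the cytosolic leaflet, and most of them leave the endoplasmic reticulum only with a CDC50 subunit such as TMEM30A. Scramblases let lipids pass both ways, and XKR8 does so after caspase cleavage, which exposes phosphatidylserine on dying cells. ATP8B1, also called FIC1, sits at the apical membrane of epithelia and is best known from the liver, where its inherited loss causes intrahepatic cholestasis.

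Flippases form a covalent phosphate intermediate on an aspartate inside a signature that all P-type ATPases share. The coding sequence around it is shown for 6 of the 7 catalytic members, since it marks them as a family and shows how far their mRNAs have drifted apart, which bears on whether reads can be told apart. Sequences are 5′ to 3′ from GENCODE 29 reference transcripts, 57 bases each, with the codons of the signature in capitals. Those of ATP8B1 and ATP10D lie within 1 exon, and the others run across a splice junction.
ATP8B1: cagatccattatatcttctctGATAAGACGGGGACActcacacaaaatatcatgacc
ATP10D: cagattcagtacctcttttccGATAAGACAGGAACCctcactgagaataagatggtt
ATP11A: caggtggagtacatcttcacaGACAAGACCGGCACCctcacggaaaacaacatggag
ATP11B: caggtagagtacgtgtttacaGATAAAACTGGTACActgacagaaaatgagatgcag
ATP9A: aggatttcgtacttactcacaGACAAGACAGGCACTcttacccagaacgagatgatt
ATP9B: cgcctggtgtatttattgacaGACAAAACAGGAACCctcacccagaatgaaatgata

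The ATP8B1 stretch lies in exon 13 of 28 on chromosome 18 (chr18:57688333-57688389, minus strand, GRCh38), and its capitals open with codon 454. The ATP10D stretch is chr4:47536833-47536889, on the plus strand of GRCh38. Of the 57 bases, ATP10D shared 40 with ATP8B1, ATP11A 39, ATP11B 36, ATP9B 33 and ATP9A 32. The signature, searched on the sense strand in any frame with every codon choice, was found in 45 of 19669 protein-coding genes (0.229%), among them 35 of the 35 P-type ATPases looked at. The longest run that the coding sequence of ATP8B1 shared with that of another member was 18 bases, with ATP10D. In whole transcripts, 142 of the 7134 distinct 31-base words of ATP8B1 (1.99%) also occurred in another gene on the same strand, and 420 (5.89%) on the opposite strand. For the other members the same-strand share ran from 0% for ATP11B and TMEM30A to 7.12% for ATP9B and 8.93% for XKR8.

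The libraries held 21413002 to 23494771 assigned fragments. ZNFX1 itself was read at 103, 70.5 and 75.2 CPM in ZNFX1 KO 1, 2 and 3 and at 130, 208 and 109 CPM in WT 1, 2 and 3. Its groups did not overlap, as for 20.2% of all tested genes in CPM, and it did not pass the threshold (edgeR quasi-likelihood test, adjusted p = 0.218). The highest library was WT 2, which also held the highest sum of interferon-stimulated genes, and ZNFX1 KO 1 came near WT 3. A small insertion or deletion can leave the mRNA in place, so its level is only a weak check of the labels. The ovarian and epithelial markers PAX8, MUC16, MSLN, KRT7, CDH1 and CLDN3 were at 0.05 TPM or less in every library, and EPCAM was at 0 TPM in the KO and 0.132 to 0.736 TPM in WT. WT1, of the same list, was read in every library, at 1.22 to 1.94 TPM in the KO and 1.13 to 2.36 TPM in WT. CLDN4 was at 0.0186 to 0.132 TPM in the KO and 0.0225 to 0.485 TPM in WT. Keratins did not go one way. KRT18 was at 70.7 to 88.5 TPM in the KO and 38.9 to 71.1 TPM in WT, its partner KRT8 at 3.76 to 5.89 TPM in the KO and 4.26 to 11.5 TPM in WT, and KRT19 at 0.0521 to 0.732 TPM in the KO and 0.824 to 1.14 TPM in WT. The endothelial markers CDH5, TIE1, PECAM1 and TEK were clearly read in all 6 libraries, while VWF and CLDN5 were low. CDH5 and TIE1 were at 67.5 to 103 TPM, PECAM1 at 16.2 to 69.9 TPM and TEK at 14.98 to 30.1 TPM. VWF was at 0.602 to 1.55 TPM and CLDN5 at 0.023 TPM or less. WT 2 held the highest sum of interferon-stimulated genes and the lowest sum of cell cycle genes. By gene counts it was not the odd WT library. The chi-square per degree of freedom was 33.5 between WT 1 and WT 2, 62.7 between WT 1 and WT 3 and 112 between WT 2 and WT 3. The summed level of 15 interferon-stimulated genes was 1336 TPM in WT 2, against 212 to 360 TPM in the KO and 378 and 423 TPM in the other WT libraries. The summed level of 15 cell cycle genes was 169 TPM in WT 2, against 646 to 744 TPM in the KO and 356 and 785 TPM in the other WT libraries.

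ATP8B1 (ENSG00000081923.15, chromosome 18, 57646426 to 57803315, minus strand) was a weakly read flippase in WT and a more abundant one in the KO. It was at 2.34, 2.92 and 2.61 TPM in ZNFX1 KO 1, 2 and 3, against 0.752, 0.523 and 0.581 TPM in WT 1, 2 and 3. The KO libraries were close to each other and all lay above the WT libraries, of which WT 1 was the highest. These levels rest on 486, 479 and 472 reads in the KO and on 152, 106 and 102 reads in WT. The mean was 2.62 ± 0.292 TPM in the KO and 0.619 ± 0.119 TPM in WT (SD, n = 3 each), a ratio of 4.24. The fitted log2 fold change was 2.03 (SE 0.23). It lay between 1.89 and 2.27 when any library was left out, and was 1.96 without WT 2.

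Marker levels of other cell types stood beside it as follows. The summed level of 6 hepatocyte markers was 4.54 to 6.64 TPM in the KO and 0.667 to 3.80 TPM in WT and did not overlap, nearly all of it from APOA1. The defining hepatocyte genes ALB, TTR and APOB were at 0.05 TPM or less in every library. Endothelial markers (6 genes) summed to 216 to 269 TPM in the KO and 198 to 278 TPM in WT, with VWF and CLDN5 low as given above, leukocyte markers (7 genes) to 81.8 to 110 TPM in the KO and 104 to 182 TPM in WT, nearly all from CD68, and fibroblast markers (6 genes) to at most 0.141 TPM. PTPRC, the pan-leukocyte marker, was at 0. The part of these markers in the ATP8B1 difference was not tested, and in bulk RNA more cells of a type and more RNA per cell cannot be told apart.

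**Figure D1:**
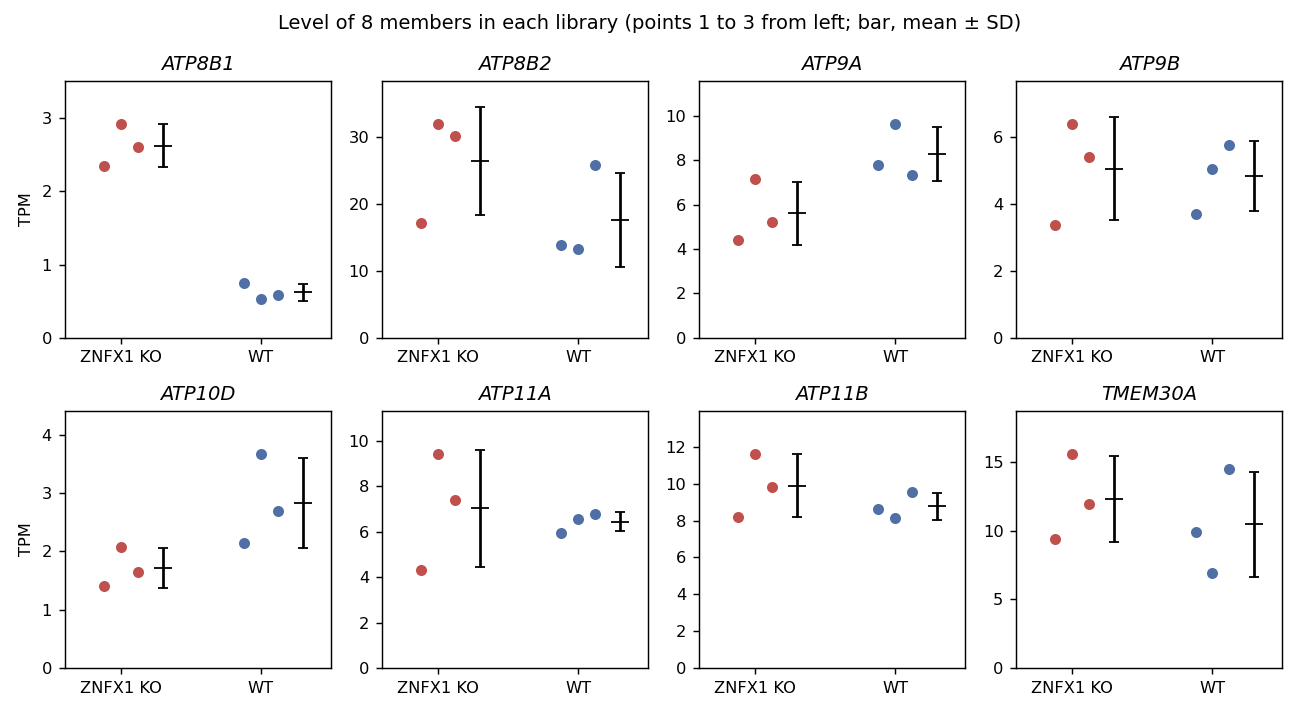
TPM of 8 members in each library, with ZNFX1 KO left of WT in each panel, points for libraries 1 to 3 from left to right, and the mean ± SD beside them (n = 3 each). ATP8B1 sits at 2.34 to 2.92 TPM in the KO and 0.523 to 0.752 TPM in WT, while the points of ATP8B2, ATP9B, ATP11A, ATP11B and TMEM30A overlap between the groups.

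Part of the ATP8B1 signal was listed under transcript rows that the files had not joined to the gene, here joined by GENCODE 29. The gene row held 87.2%, 75.7% and 83.5% of the ATP8B1 reads in ZNFX1 KO 1, 2 and 3 and 86.2%, 81.9% and 63.9% in WT 1, 2 and 3. ENST00000648467.1, a form annotated for nonsense-mediated decay, had an estimated 61.6, 76.1 and 83.7 reads in ZNFX1 KO 1, 2 and 3, against 24.2, 23.4 and 22.6 reads in WT 1, 2 and 3. It was higher in every KO library, as was the gene row. Both come from the libraries that chose ATP8B1, so this form adds no support to the difference of the gene row. A pair of other forms of the same class were each read in a single library, ENST00000642462.1 with 73.3 reads in ZNFX1 KO 2 and ENST00000648039.1 with 34.8 reads in WT 3. With these rows added, the log2 fold change of ATP8B1 was 1.97. The effective length of the gene row was 5995 ± 1.43 bases in the KO and 5995 ± 1.68 bases in WT (SD, n = 3 each). The row of XKR8, with 0 reads, varied alike (SD 1.43 bases in the KO and 1.67 bases in WT). The effective length of ATP8B1 therefore cannot show a change in its mix of transcripts.

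The neighbours of ATP8B1 on chromosome 18 gave no call. Of 18 other gene rows within 500 kb, 5 could be tested, and 0 had an adjusted p under 0.05 with edgeR. Of all tested genes 0.727% passed, and 5 genes are too few to differ from that share. NARS1, the cytosolic asparaginyl-tRNA synthetase, lies 24213 bases away and had a log2 fold change of 0.089 (SE 0.17). FECH, which inserts iron into haem, was at 0.048 (SE 0.31), and the transcription factor gene ONECUT2 at 0.17 (SE 0.23).

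Antisense genes overlap ATP8B1 on the plus strand. ATP8B1-AS1 was at 2.48, 3.15 and 2.64 TPM in ZNFX1 KO 1, 2 and 3 and at 2.68, 2.19 and 3.47 TPM in WT 1, 2 and 3, and its groups overlapped (log2 fold change -0.015, SE 0.22). The antisense gene ENSG00000267787 was at 1.73, 1.54 and 0.736 TPM in the KO and 1.87, 2.47 and 2.03 TPM in WT. Its groups did not overlap, in the direction opposite to ATP8B1, and it did not pass the threshold (log2 fold change -0.77, SE 0.36, edgeR adjusted p = 0.354). Groups did not overlap in CPM for 20.2% of all tested genes, with 10.8% lower in the KO. The library kit marks strand, but whether the counting used it is not given in the sources used here. Of the 31-base words of ATP8B1, 1.15% were found on the opposite strand in ATP8B1-AS1 and 2.51% in ENSG00000267787.

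Of the other 8 members, 7 could be tested and 0 had an adjusted p under 0.05 (edgeR quasi-likelihood test), where 0.727% of the 14166 tested genes passed (0.268% higher and 0.459% lower in the KO). DESeq2 and limma-voom also called 0 of the 7. Among all genes they called 579 and 76, against 103 with edgeR. Without adjustment, 3 had a p under 0.05 (ATP8B2, ATP9A and ATP10D), against 15.1% of all tested genes. The median log2 fold change of the 7 was 0.059, with 5 positive and 2 negative values, and that of all tested genes was -0.012. By CPM the groups did not overlap for 1 of the 7, ATP10D, which was lower in the KO. Over all tested genes this share was 20.2%, with 9.39% higher and 10.8% lower in the KO.

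**Figure D2:**
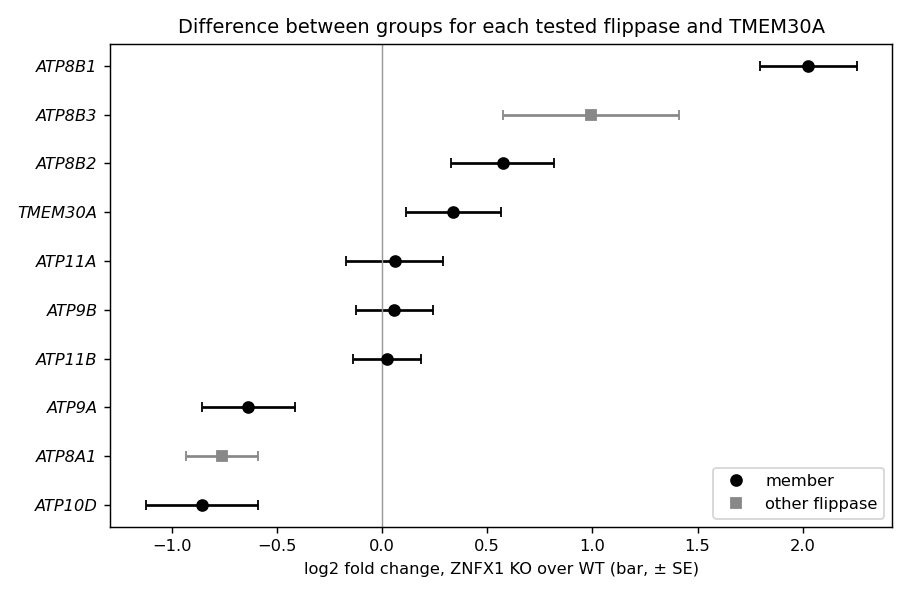
Log2 fold change of ZNFX1 KO over WT (x axis) with its SE for the 7 catalytic members and TMEM30A (circles) and for the flippases ATP8A1 and ATP8B3 (squares). ATP8B1 stands at 2.03, and the others run from -0.86 for ATP10D to 0.99 for ATP8B3.

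ATP8B2, the closest relative of ATP8B1 among the members and a flippase of phosphatidylcholine, was the most abundant of them (chromosome 1, 154325553 to 154351307). It was at 17.1, 32.0 and 30.1 TPM in ZNFX1 KO 1, 2 and 3 and at 13.8, 13.3 and 25.8 TPM in WT 1, 2 and 3. ZNFX1 KO 2, ZNFX1 KO 3 and WT 3 were high and the other 3 libraries low, so the groups overlapped. The fitted difference was 0.57 on the log2 scale, with an SE of 0.25, and did not pass (adjusted p = 0.322 in edgeR). ATP8B2 exceeded ATP8B1 by a factor of 7.32, 10.9 and 11.5 in ZNFX1 KO 1, 2 and 3 and of 18.4, 25.5 and 44.3 in WT 1, 2 and 3 on the TPM scale.

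ATP10D, a flippase of glucosylceramide at the plasma membrane, was at 1.40, 2.08 and 1.65 TPM in ZNFX1 KO 1, 2 and 3 and at 2.14, 3.67 and 2.69 TPM in WT 1, 2 and 3. The groups did not overlap, with the KO lower, though ZNFX1 KO 2 came near WT 1. The log2 fold change was -0.86 (SE 0.27) and did not pass the threshold (edgeR adjusted p = 0.211). Its highest library was WT 2, where the interferon-stimulated genes were also highest, and without WT 2 the log2 fold change was -0.51. The part of the interferon-stimulated genes in this difference was not tested.

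ATP9A acts in endosomal recycling and works without a CDC50 subunit. It was at 4.41, 7.16 and 5.24 TPM in ZNFX1 KO 1, 2 and 3 and at 7.80, 9.64 and 7.35 TPM in WT 1, 2 and 3. On this scale the groups did not overlap, but in CPM they did, with 75.8 CPM in ZNFX1 KO 2 against 75.2 CPM in WT 3. The fitted log2 difference of -0.63 had an SE of 0.22 and did not pass (adjusted p = 0.255 in edgeR). It passed when WT 3 was left out, at -0.79 with an adjusted p = 0.0420 in edgeR. In that setting 1315 genes passed in all, against 103 in the main fit. The adjusted p of ATP9A over all alternatives ran between 0.0420 and 0.610. Of the partner proteins of ATP9A, MON2, DOP1A and DOP1B, 0 of 3 passed with edgeR and 0 with DESeq2 (1, DOP1A, at an unadjusted p under 0.05). Over all tested genes, 15.1% had an unadjusted p under 0.05 with edgeR. DOP1A was at 0.307, 0.241 and 0.259 TPM in ZNFX1 KO 1, 2 and 3 and at 0.494, 0.533 and 0.529 TPM in WT 1, 2 and 3. Its groups did not overlap, with the KO lower, and the fitted log2 difference of -0.96 (SE 0.27) did not pass (adjusted p = 0.177 in edgeR). The values were -0.015 (SE 0.18) for MON2 and -0.25 (SE 0.18) for DOP1B on the log2 scale.

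ATP9B, the relative of ATP9A at the trans-Golgi network, was at 3.38, 6.38 and 5.38 TPM in ZNFX1 KO 1, 2 and 3 and at 3.69, 5.02 and 5.75 TPM in WT 1, 2 and 3. The groups overlapped, at 0.059 on the log2 scale with an SE of 0.18 (adjusted p = 0.896 in edgeR). With library totals alone the sign turned, to -0.0079.

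ATP11A moves phosphatidylserine and phosphatidylethanolamine inward at the plasma membrane and is cut by caspases in apoptosis. It was at 4.31, 9.42 and 7.39 TPM in ZNFX1 KO 1, 2 and 3 and at 5.96, 6.56 and 6.80 TPM in WT 1, 2 and 3. The WT libraries all lay within the range of the KO libraries, and the fitted log2 difference of 0.060 had an SE of 0.23 (adjusted p = 0.919 in edgeR). It was -0.0077 with library totals alone.

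ATP11B, a flippase of endosomes, was at 8.21, 11.6 and 9.84 TPM in ZNFX1 KO 1, 2 and 3 and at 8.64, 8.11 and 9.54 TPM in WT 1, 2 and 3. Its groups overlapped, and the fitted log2 difference of 0.023 was smaller than its SE of 0.16 (adjusted p = 0.958 in edgeR). Only 64.7% of its reads over the 6 libraries were in the gene row, the lowest share of the 7 flippases here. The largest separate row, ENST00000498086.5, annotated as protein-coding, had between 390 and 485 estimated reads in the KO and between 419 and 613 in WT. With the separate rows added the log2 fold change was -0.070, and with library totals alone it was -0.045.

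TMEM30A, the CDC50A subunit that escorts most flippases out of the endoplasmic reticulum, was at 9.42, 15.6 and 11.9 TPM in ZNFX1 KO 1, 2 and 3 and at 9.92, 6.94 and 14.5 TPM in WT 1, 2 and 3. WT 2 was the lowest library and ZNFX1 KO 2 the highest, with the others between. The fitted log2 difference was 0.34 with an SE of 0.23 (adjusted p = 0.492 in edgeR). The summed level of 13 flippases per unit of TMEM30A was 5.04 ± 0.417 in the KO and 5.38 ± 1.54 in WT (SD, n = 3 each) on the TPM scale, and the groups overlapped. This sum includes ATP9A, which works without a CDC50 subunit, so the ratio is not that of flippases served per subunit.

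XKR8 was the member with no signal. Its gene row had 0 reads in each of the 6 libraries, which allows up to 0.156 CPM where the library was smallest (3 counts per library). A short separate XKR8 transcript had 0 to 2 reads in the KO and 1 to 6 reads in WT. Basigin (BSG), which XKR8 needs to reach the plasma membrane, was at 148 ± 13.7 TPM in the KO and 135 ± 25.7 TPM in WT (SD, n = 3 each). Of the 5 partners and caspases looked at, 0 passed with edgeR and 0 with DESeq2, and 1 had an unadjusted p under 0.05 (CASP6, -0.59 on the log2 scale, SE 0.23). Over all tested genes the share with an unadjusted p under 0.05 was 15.1% with edgeR.

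**Figure D3:**
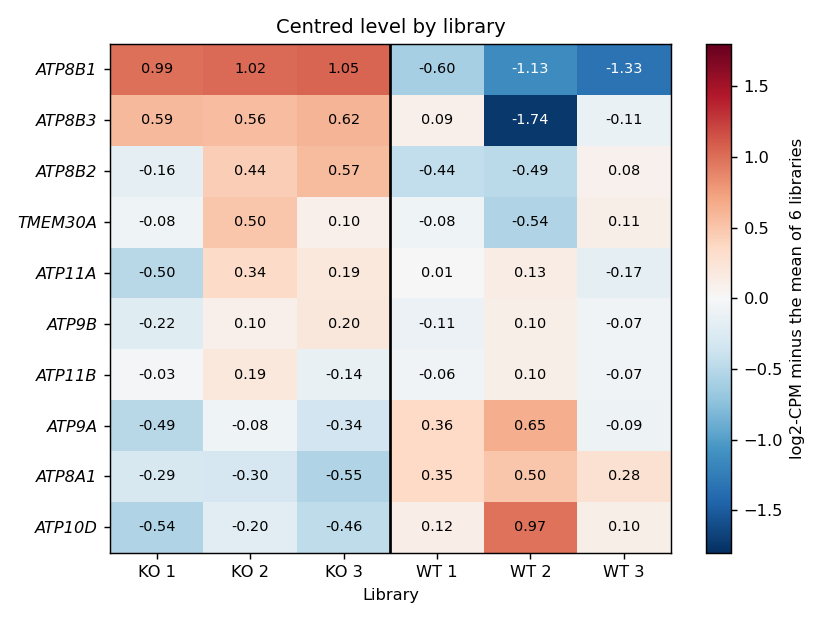
Log2-CPM of the tested flippases and TMEM30A in each library, minus the gene's mean over the 6 libraries, with ZNFX1 KO libraries left of the line and WT libraries right of it. ATP8B1 runs from 0.99 to 1.05 in the KO and from -1.33 to -0.60 in WT, and ATP9A, ATP8A1 and ATP10D peak in WT 2 at 0.65, 0.50 and 0.97.

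In order of TPM, the KO had ATP8B2, TMEM30A, ATP11B, ATP11A, ATP9A, ATP9B, ATP8B1 and ATP10D. In WT the order was ATP8B2, TMEM30A, ATP11B, ATP9A, ATP11A, ATP9B, ATP10D and ATP8B1. ATP8B1 was thus above ATP10D in the KO, where their ranges were apart, and below it in WT, where they were also apart. Neighbours from TMEM30A to ATP9B in the KO had ranges that overlapped, and so did those from ATP8B2 to ATP9A in WT.

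Further human flippases were read beside the members. Of 13 P4-ATPases looked at, the 7 members included, 9 were read in every library, and ATP8A2, ATP8B4, ATP10A and ATP10B were at 0 reads in all 6. The epithelial subunit TMEM30B was also at 0.

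ATP8A1, a phosphatidylserine flippase of endosomes, was at 1.36, 1.70 and 1.21 TPM in ZNFX1 KO 1, 2 and 3 and at 2.08, 2.32 and 2.55 TPM in WT 1, 2 and 3. The groups did not overlap, and the log2 fold change of -0.76 (SE 0.17) did not pass with edgeR (adjusted p = 0.103), while DESeq2 called it. DESeq2 called 579 genes in all, against 103 with edgeR, and 20.2% of all tested genes had groups that did not overlap in CPM. ATP8B3, known from the sperm acrosome in mouse, was at 2.06, 2.49 and 2.26 TPM in the KO and 1.43, 0.393 and 1.60 TPM in WT. Its groups did not overlap either, and the lowest library was WT 2 (log2 fold change 0.99, SE 0.42, edgeR adjusted p = 0.317).

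The makeup of flippase mRNA was described as each gene's share of the summed TPM of these 13 flippases. The sum was 62.0 ± 15.9 TPM in the KO and 52.8 ± 8.64 TPM in WT (SD, n = 3 each), with overlapping groups. ATP8B1 made up 5.25%, 3.86% and 3.97% of it in ZNFX1 KO 1, 2 and 3, against 1.62%, 1.05% and 0.928% in WT 1, 2 and 3. It ranked 6 in the KO and 9 in WT, last of those that were read.

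The share of ATP9A was 9.88%, 9.45% and 7.97% in ZNFX1 KO 1, 2 and 3, against 16.8%, 19.4% and 11.7% in WT 1, 2 and 3. The shares of ATP10D and ATP8A1 were also lower in every KO library than in any WT library, at 2.80% ± 0.318 in the KO against 5.44% ± 1.70 in WT for ATP10D and at 2.37% ± 0.608 in the KO against 4.41% ± 0.303 in WT for ATP8A1 (SD, n = 3 each). The share of ATP8B3, like that of ATP8B1, was higher in every KO library than in any WT library. It was 4.61%, 3.28% and 3.44% in ZNFX1 KO 1, 2 and 3, against 3.08%, 0.793% and 2.55% in WT 1, 2 and 3. ATP8B2 took the largest share in each library but its groups overlapped. It had 42.2% ± 3.70 in the KO and 32.6% ± 7.52 in WT (SD, n = 3 each). Shares are parts of the same sum, so a larger share of one flippase lowers those of the others. The groups of ATP9A were apart by share but overlapped in CPM, as given above.

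**Figure D4:**
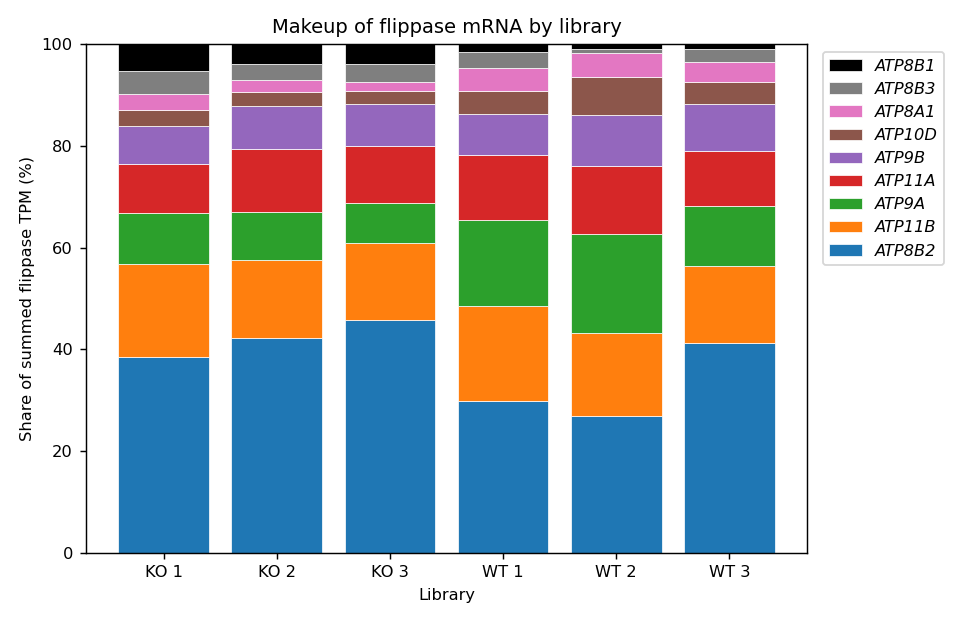
Share of the summed flippase TPM (y axis, percent) taken by each of 9 flippases that were read, with ZNFX1 KO libraries left and WT libraries right. The black segment, ATP8B1, spans 3.86% to 5.25% in the KO and 0.928% to 1.62% in WT, and the green segment, ATP9A, is 7.97% to 9.88% in the KO and 11.7% to 19.4% in WT.

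Scramblases, which undo the asymmetry that flippases build, gave 0 calls among 12 tested genes of 23 with edgeR and 0 with DESeq2 (2 at an unadjusted p under 0.05, PLSCR1 and ATG9A), with a median log2 fold change of -0.17. Of all tested genes, 15.1% had an unadjusted p under 0.05 with edgeR and 20.2% had groups that did not overlap in CPM. PLSCR1, an interferon-induced protein of the phospholipid scramblase family, was at 18.6, 21.7 and 19.5 TPM in ZNFX1 KO 1, 2 and 3 and at 20.8, 72.0 and 30.7 TPM in WT 1, 2 and 3. WT 2 was far above the other libraries, and the fitted log2 difference of -1.03 (SE 0.41) did not pass (adjusted p = 0.298 in edgeR). ATG9A, the scramblase of growing autophagosomes, was at 6.36, 7.05 and 7.56 TPM in ZNFX1 KO 1, 2 and 3 and at 8.75, 8.73 and 9.94 TPM in WT 1, 2 and 3, lower in each KO library than in any WT library (-0.40 on the log2 scale, SE 0.16, adjusted p = 0.304 in edgeR). VMP1, a scramblase of the endoplasmic reticulum, was at 19.1 ± 3.02 TPM in the KO and 20.1 ± 2.90 TPM in WT (SD, n = 3 each).

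ABC transporters that export lipids gave 0 calls among 6 tested genes of 11 with edgeR (2 at an unadjusted p under 0.05, ABCA2 and ABCA3). ABCA2, which was lower in the KO (-0.76 on the log2 scale, SE 0.18), was among the 579 genes that DESeq2 called, against 103 with edgeR. The most abundant were ABCC1, at 9.97 ± 0.616 TPM in the KO and 11.8 ± 0.679 TPM in WT, and ABCA3, the lipid transporter of lamellar bodies in the lung, at 8.32 ± 0.290 TPM in the KO and 11.7 ± 0.505 TPM in WT (SD, n = 3 each). Their groups did not overlap in CPM, and neither passed (log2 fold changes -0.29, SE 0.17, and -0.58, SE 0.19, edgeR adjusted p = 0.430 and 0.225). Among all tested genes, groups did not overlap for 20.2%, and 15.1% had an unadjusted p under 0.05 with edgeR.

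Synthesis of phosphatidylserine and phosphatidylethanolamine, the lipids that several flippases carry, gave 0 calls among 9 tested genes with edgeR and 0 with DESeq2 (3 at an unadjusted p under 0.05). Those 3 had groups that did not overlap in CPM, and so did PEMT, lower in the KO (-0.36 on the log2 scale, SE 0.20, adjusted p = 0.426 in edgeR). Over all tested genes, 15.1% had an unadjusted p under 0.05 with edgeR and 20.2% had groups that did not overlap. PTDSS2, a phosphatidylserine synthase, was lower in the KO (-0.62 on the log2 scale, SE 0.19, adjusted p = 0.211 in edgeR), as was the ethanolamine kinase ETNK2 (-1.42, SE 0.50, adjusted p = 0.256 in edgeR). PCYT2, which makes CDP-ethanolamine, was higher in the KO (0.43, SE 0.17, adjusted p = 0.307 in edgeR). The most abundant, CEPT1 and ETNK1, enzymes of phosphatidylethanolamine synthesis, differed by -0.29 (SE 0.28) and 0.21 (SE 0.20) on the log2 scale. Other P-type ATPases, which pump ions or polyamines, gave 0 calls among 12 tested genes of 22 with edgeR. The copper pump ATP7A (-0.95 on the log2 scale, SE 0.28) was among the 579 genes that DESeq2 called, against 103 with edgeR. An unadjusted p under 0.05 was found for 2, ATP7A and the calcium pump ATP2A1 (-1.25, SE 0.45), both lower in the KO. ATP2B4, a calcium pump of the plasma membrane, was at 113 ± 31.6 TPM in the KO and 98.9 ± 3.03 TPM in WT (SD, n = 3 each).

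Genes of bile transport, the setting in which ATP8B1 is best known, gave no call. Of 10 bile canaliculus and bile acid genes 3 could be tested, 0 passed with edgeR or DESeq2, and 0 had an unadjusted p under 0.05. Of all tested genes, 0.727% passed with edgeR and 15.1% had an unadjusted p under 0.05. The 3 genes are too few to differ from these shares. The conjugate exporter ABCC2 was at 0.338 ± 0.102 TPM in the KO and 0.312 ± 0.146 TPM in WT (SD, n = 3 each).

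The 5 genes whose profile over the 6 libraries was closest to that of ATP8B1 were ADGRL3, AQP7, TLCD4, NAV3 and STC1, out of 12736 compared. Closeness was the root mean square distance between centred log2-CPM values, which was 0.20 for ADGRL3, 0.23 for AQP7, 0.25 for TLCD4, 0.29 for NAV3 and 0.30 for STC1. ADGRL3, an adhesion receptor, was at 15.3, 23.9 and 20.7 CPM in ZNFX1 KO 1, 2 and 3 and at 5.87, 3.64 and 3.42 CPM in WT 1, 2 and 3. AQP7, a glycerol channel, was at 4.63 ± 0.904 CPM in the KO and 1.31 ± 0.323 CPM in WT, and STC1, a secreted glycoprotein hormone, at 644 ± 94.5 CPM in the KO and 137 ± 40.7 CPM in WT (SD, n = 3 each). They were found through the same libraries that chose ATP8B1, so their difference between the groups adds no support to it. Among the flippases and TMEM30A the nearest was ATP8B3, at a distance of 0.69 and place 207 in the order, and the farthest was ATP10D at 1.48.

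**Figure D5:**
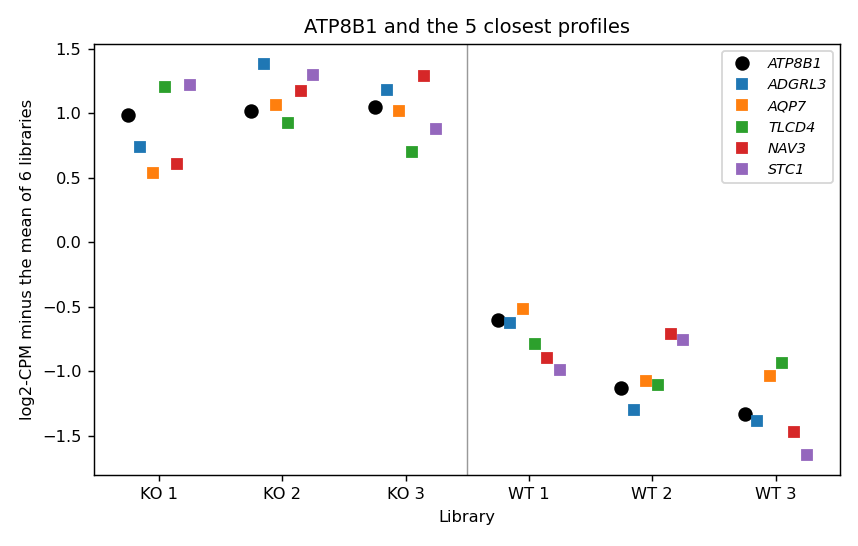
Log2-CPM minus the mean of 6 libraries for ATP8B1 (circles) and the 5 genes closest to it (squares), with ZNFX1 KO libraries left of the line and WT libraries right of it. All 6 genes are above 0.5 in each KO library and below -0.5 in each WT library.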

How the data were processed

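RNA of 6 samples (3 ZNFX1 KO, 3 WT, grouped by title) was sequenced; per the labels' protocols the library kit keeps strand and starts from total RNA. The authors deposited estimated counts and TPM values per row, made with Salmon, per the labels. FastQC, Trimmomatic and DESeq2 are also named in the submitters' processing notes. Neither versions nor the genome build nor the strand setting of the counting could be taken from the labels or headers. Each file has 62260 gene rows and 134909 transcript rows not joined to a gene, which held 9.93% to 10.7% of fragments and were left out except where named. Columns of per-sample values not used: 0.

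Symbols came from a gene table, and coordinates, gene types and sequences from GENCODE 29 (GRCh38). No protein sequence was used here, and some genes and sequences that the naming rule covers are not reported here. Estimated counts were rounded, filtered by filterByExpr (14166 genes, at least 99.8% of gene fragments), scaled by TMM (0.958 to 1.04) and tested with edgeR 4.0.16 (glmQLFit, glmQLFTest, two-sided, genotype as the only term, R 4.3.3), with Benjamini-Hochberg adjustment over all tested genes and a threshold of 0.05. Each SE is the size of the log2 fold change over the square root of F. CPM uses the scaled totals of the tested genes, log2-CPM a prior count of 2. TPM compares genes per length, CPM does not. edgeR's common dispersion gave a biological coefficient of variation of 0.262. The fit was tested on simulated data. No pair of libraries of a group agreed within sampling noise: the lowest chi-square was 27.7 per degree of freedom.

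The members and gene lists were chosen with earlier results of these data known. Named by rule were the members, the called genes of each list or else its 2 most abundant, tested genes within 500 kb of ATP8B1, and the 5 closest profiles among genes with a mean of at least 1 CPM. List genes named for an unadjusted p under 0.05, a DESeq2 call or groups that did not overlap were chosen after their values were seen. Alternatives were DESeq2 size factors, library totals, no filter, a stricter filter (1 CPM in 3 libraries), DESeq2 1.42.0, limma-voom (3.58.1), offsets for effective length, limma with TPM on a log2 scale (pseudocounts of 1 and 0.1), a block for the replicate number, joined transcript rows and each library left out.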

Additional observations from a re-analysis of the deposited data

How the results depend on the processing

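Over 17 alternatives, ATP8B1 was higher in the KO in each, with a log2 fold change of 1.16 on log2(TPM + 1), where a low gene is compressed by the pseudocount, and of 1.89 to 2.27 with a library left out. ATP8B2 and TMEM30A stayed positive and ATP9A and ATP10D negative in all 17. The call rested on single libraries for ATP9A, so that 0 to 1 of the 7 other tested members passed with a library left out. ATP9B, ATP11A and ATP11B lay near 0 and turned sign. With library totals they were at -0.0079, -0.0077 and -0.045, with joined transcript rows ATP11B was at -0.070, and with a library left out ATP9B ranged from -0.014 to 0.18, ATP11A from -0.094 to 0.28 and ATP11B from -0.060 to 0.11.

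The count of called genes behind the background share was 103 (38 higher, 65 lower). It was 602 with no filter, 579 with DESeq2, 187 with joined rows, 66 on log2(TPM + 0.1), 48 on log2(TPM + 1) and 2 to 1315 with a library left out, the lowest without ZNFX1 KO 2 and the highest without WT 3. The cause was not tested. With the replicate number as a block it was 14. Same-numbered libraries did not deviate together (correlations of -0.041 to 0.129, and 1 of 3 KO libraries matched its own number best), so the numbers are not taken as pairs. Depth limits ATP8B1 most in WT, where 102 to 152 reads carry its level.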
